A study of Mus musculus with 3 samples.

Results

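Pancreatic acinar-like cells are described here as they occurred in single-cell RNA libraries of mouse spleen. The cells were chosen by measured values, and a cell was taken as acinar-like where at least 20% of its unique molecular identifiers (UMIs, each standing for 1 captured RNA molecule) came from 10 genes together, namely Ctrb1, Try4, Try5, Prss2, Cela3b, Clps, Cpa1, Reg1, Reg2 and Reg3b. Every cell with at least 500 UMIs was considered, with no limit on mitochondrial RNA. This gave 114 acinar-like cells among 35739 cells in all, with 51 in the library IR, 63 in the library IR_HSO and 0 in the control library. All spleens were from WT mice. Control mice had no irradiation. IR mice had 8.5 Gy and what the labels spell "colvent control". IR_HSO mice had 8.5 Gy and HSO, which the series title gives as hemp seed oil. Spleens were ground into suspensions and run on the 10x Genomics platform, 1 library per group, and the number of mice in each library was not given in the labels. No difference has a replicate check, all intervals cover counting error only, and a difference between libraries cannot be told apart from a difference between treatments or dissections.

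Acinar cells are the enzyme-secreting cells of the exocrine pancreas, whose tail lies against the spleen. They make large amounts of a few inactive enzyme precursors, or zymogens, in the rough endoplasmic reticulum and store them in granules until a meal. The enzymes are proteases (trypsinogens, chymotrypsinogens, elastases, carboxypeptidases), lipases, amylase and ribonuclease, and the Reg genes encode small secreted lectins that acinar cells make at higher levels in pancreatic injury and inflammation.

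The 3 libraries held 45636807 to 50836313 UMIs and 9520 to 13509 cells, with median depths of 2945 to 4133 UMIs per cell. The control library held 37 UMIs of the 10 genes in all, against 259233 in IR and 394783 in IR_HSO. The libraries shared 34 to 54 cell barcodes in each pair, 1 acinar-like cell of IR had its barcode also in control, 1 of IR_HSO had it also in IR, and 0 acinar-like cells had the same barcode in both. Rn18s-rs5, a ribosomal RNA gene, took 2.97% of UMIs in control, 1.23% in IR and 4.99% in IR_HSO.

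Acinar-like cells made up 0.378% of cells in IR (51 of 13509, exact binomial 95% interval 0.281% to 0.496%) and 0.496% in IR_HSO (63 of 12710, 0.381% to 0.634%). The 2 intervals overlapped. The control library had 0 of 9520, which allows a share of up to 0.0315% when taken as 3 counts of the total, and of up to 0.0387% as the upper end of the exact interval used for the others. Few cells lay near the 20% limit, as the plot of the 10 genes' share against depth shows. Just inside it, the lowest cells stood at 21.5% in IR and 20.2% in IR_HSO, and just outside it the highest stood at 18.7% and 17.9%. A limit of 10% would have given 53 and 67 cells, and a limit of 40% would have given 45 and 50.

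**Figure D1:**
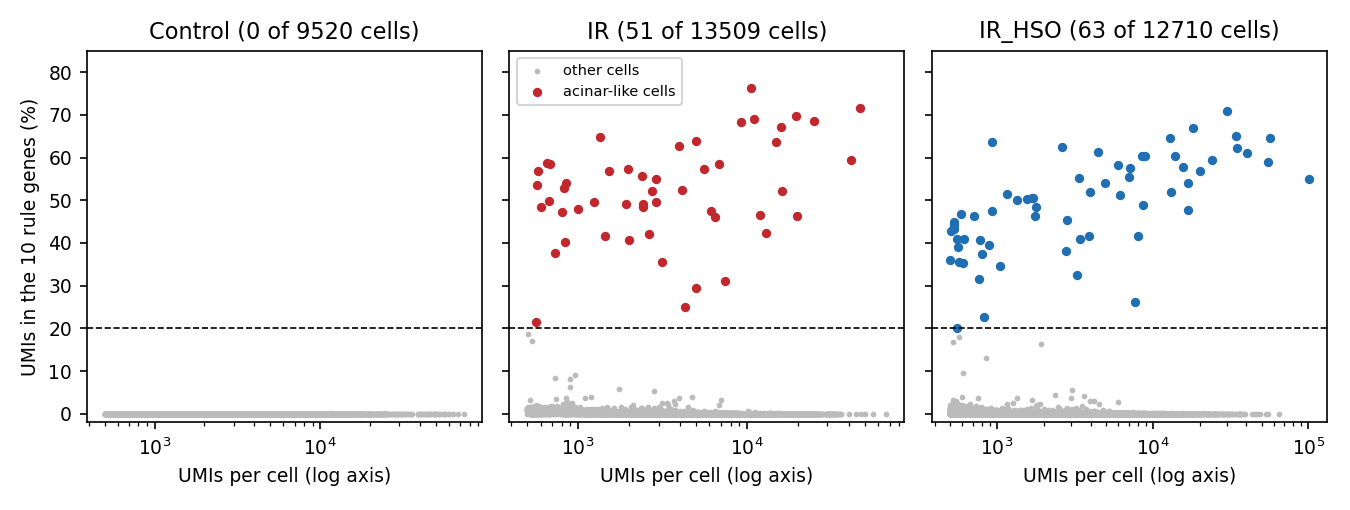
Share of each cell's UMIs in the 10 rule genes (vertical axis, %) against its UMIs (horizontal log axis) in the 3 libraries, with the 20% limit dashed. Coloured points are the 51 acinar-like cells of IR and the 63 of IR_HSO, the control library has 0 cells at 1% or more, and depth in IR_HSO reaches 100918 UMIs.

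The acinar-like cells held 352678 UMIs in IR and 631993 in IR_HSO. The median cell had 2887 UMIs (562 to 46795) in IR and 3279 (503 to 100918) in IR_HSO. A few deep cells carried much of the RNA. The deepest cell held 13.3% of the acinar-like UMIs in IR and 16% in IR_HSO, and the 5 deepest held 43.3% and 45.4%. Levels below are the summed UMIs of these cells per 1000000 (CPM) unless a median over cells is named. They are not divided by gene length, so the order of genes is an order of captured molecules.

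A set of 67 acinar genes, the 10 included, held 78.2% of acinar-like UMIs in IR and 80.6% in IR_HSO. Of all acinar-like UMIs the 10 held 58.5% and 57.8%, and since they chose the cells, their part is no check of the label. The label was checked against genes that took no part in the rule. Among these, 17 other acinar proteases and inhibitors held 10.4% and 13.1% of acinar-like UMIs. Klk1, a tissue kallikrein of the exocrine pancreas, was 620 and 858 times its level in the other cells of the same library. Aqp12, an aquaporin of acinar cells, was 1324 and 1082 times higher, and Gp2, the main glycoprotein of the zymogen granule membrane, 642 and 810 times. Of 12 acinar transcription factors 11 had at least 1 UMI, all at low levels. Ptf1a, the factor that specifies acinar cells, had 4 UMIs in each library, Rbpjl, its partner in the PTF1 complex, had 7 and 29, and Bhlha15, which scales up secretory capacity, had 5 and 11. Xbp1, a regulator of the secretory apparatus, stood at 125 and 101 CPM.

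Markers of most other pancreatic and abdominal cell types were near 0, and ductal genes were an exception. The 9 endocrine genes (Ins1, Ins2, Gcg, Sst and others) and the 5 mesothelial genes had 0 UMIs in both libraries. The 8 ductal genes together stood at 79.4 and 88.6 CPM, above the 40.3 and 46.4 CPM of the other cells. Most of it was Muc1 at 53.9 and 69.6 CPM, a mucin that acinar cells also carry, while Cftr and Spp1 had 0 UMIs in both. Fibroblast genes had 9 and 3 UMIs, endothelial genes 3 and 1, and intestinal and liver genes 6 and 17, all of Ttr. Monocyte, macrophage and dendritic cell genes had 9 and 12 UMIs, neutrophil genes 1 and 6, red cell and platelet genes 1 and 0, and B cell genes 2 and 0.

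Proteases led the profile. Ctrb1, which encodes chymotrypsinogen B, was the most abundant gene, with 193905 CPM in IR and 202062 CPM in IR_HSO. It took 18.0% of the UMIs of the median cell in IR (3.53% to 29.4%) and 18.1% in IR_HSO (6.59% to 28.8%), and the cells of both libraries covered much the same range. The 11 trypsinogen and trypsinogen-like genes together held 22.9% of acinar-like UMIs in IR and 21.0% in IR_HSO. Prss2, an anionic trypsinogen, took 5.99% of the median cell (2.88% to 10.2%) and 5.37% (1.26% to 10.2%). Trypsinogen genes lie as close copies in 1 cluster, so reads can be lost or split between them and levels of single copies are uncertain.

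The promoters of these genes were looked at because their transcripts were high together. The PTF1 complex binds a bipartite site made of an E-box, written CANNTG, and a TC box, searched here as TTTCCCA on both strands (TGGGAAA on the other). RefSeq promoters of build GRCm38.p6, the 250 bases before each gene's start, were matched for 8 of the 10 genes and for Cela2a. The TC box stood in 4 of the 8 (Ctrb1, Prss2, Cpa1, Reg1) and in Cela2a, against 6.82% of all 32851 promoters of the same length. CANNTG stood in all 8 and in Cela2a, against 66.2% of all promoters, and 0 TC box matches overlapped it. The promoters of the chymotrypsinogen, a trypsinogen and the elastase that differed most between the libraries are printed, 5′ to 3′ on the gene's strand, with the TC box in capitals. They lie at chr8:111691011-111691260 (minus strand), chr6:41521526-41521775 (plus strand) and chr4:141826006-141826255 (minus strand).
Ctrb1 promoter: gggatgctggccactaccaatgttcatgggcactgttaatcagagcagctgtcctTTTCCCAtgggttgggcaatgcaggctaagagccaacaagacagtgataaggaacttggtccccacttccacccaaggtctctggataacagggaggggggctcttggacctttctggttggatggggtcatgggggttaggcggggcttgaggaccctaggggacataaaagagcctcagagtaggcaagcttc
Prss2 promoter: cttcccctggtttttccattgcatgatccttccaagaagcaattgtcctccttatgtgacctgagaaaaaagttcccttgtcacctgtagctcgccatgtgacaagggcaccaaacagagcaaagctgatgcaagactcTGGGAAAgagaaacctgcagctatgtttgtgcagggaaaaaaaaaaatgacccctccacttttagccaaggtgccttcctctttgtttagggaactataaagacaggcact
Cela2a promoter: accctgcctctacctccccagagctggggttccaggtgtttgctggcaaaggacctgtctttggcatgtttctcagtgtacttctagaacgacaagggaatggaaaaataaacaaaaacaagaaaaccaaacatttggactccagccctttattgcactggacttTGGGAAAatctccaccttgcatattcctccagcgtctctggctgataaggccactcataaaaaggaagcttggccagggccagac
In Ctrb1 the TC box begins 195 bases before the start and the E-box 10 bases further upstream. In Prss2 it begins 111 and in Cela2a 85 bases before the start, on the other strand, and the nearest E-box begins 44 and 34 bases from it. A match describes these letters and was not tested for binding.

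Between the 2 libraries the rule genes held nearly the same levels. Since these genes chose the cells, their values are a description. Of the 10, 0 were 2-fold higher and 0 were 2-fold lower in IR_HSO than in IR, and the IR_HSO to IR ratios ran from 0.754 for Try5 to 1.12 for Reg3b. Try5, a trypsinogen, stood at 90553 CPM in IR and 68257 CPM in IR_HSO, and 21 of 63 cells of IR_HSO lay above the IR median.

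Over all 456 genes with at least 50 UMIs in the 2 sets of acinar-like cells together, 16 (3.51%) were at least 2-fold higher and 36 (7.89%) at least 2-fold lower in IR_HSO, after adding 1 CPM. The median log2 difference was -0.22. With log2 differences centred on that median, 26 were higher and 21 lower. Each of the 52 genes had a counting interval of its ratio that left out 1. The limits of 2-fold and 50 UMIs nearly ensure this, and the interval takes no account of differences between cells, so it adds little to the calls. The plot of levels in both libraries shows that most acinar enzymes lay on the line of equality and that the genes off it were mostly of lower level.

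**Figure D2:**
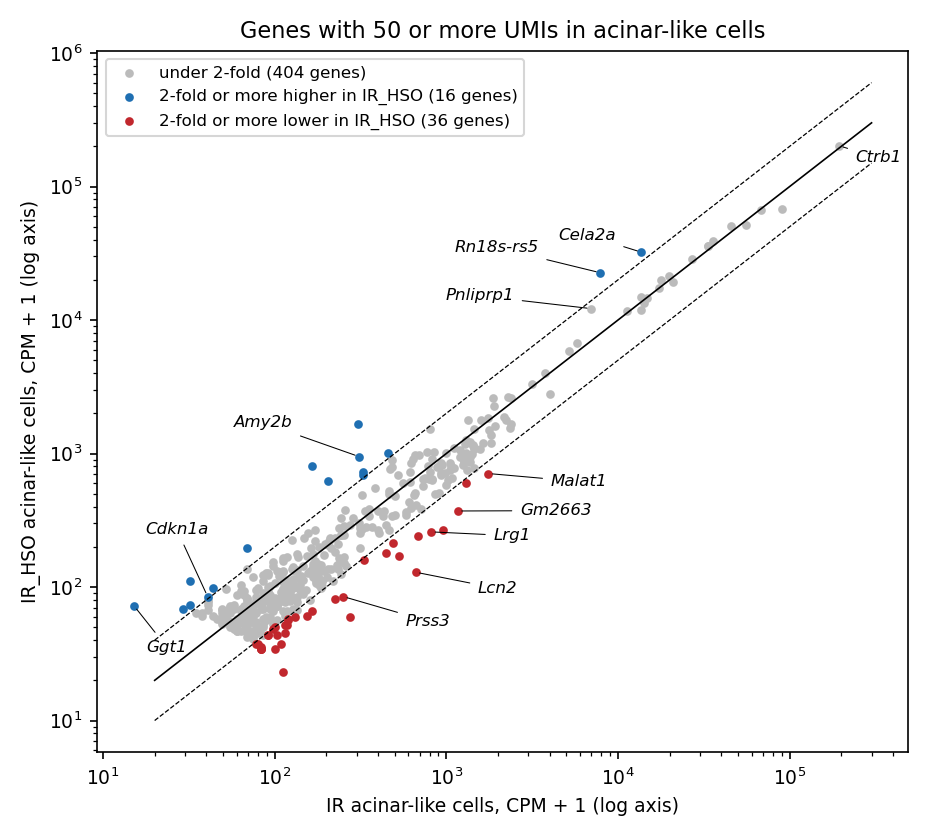
Level of each of the 456 genes in the acinar-like cells of IR (horizontal) and IR_HSO (vertical), in CPM + 1 on log axes, with the line of equality and dashed lines at 2-fold. Blue marks the 16 genes at least 2-fold higher in IR_HSO and red the 36 at least 2-fold lower, and Cela2a is the most abundant of them.

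Among 17 other acinar proteases and inhibitors, 12 were tested, 1 was 2-fold higher (Cela2a) and 2 were 2-fold lower (Prss3 and 1810009J06Rik), with a median log2 difference of 0.13. Cela2a encodes a chymotrypsin-like elastase of pancreatic juice. It took 1.16% of the UMIs of the median cell in IR (0.402% to 5.69%) and 3.22% in IR_HSO (0.122% to 9.17%). Of the 63 cells of IR_HSO, 62 lay above the IR median and 9 above the highest IR cell, and 5 of 51 cells of IR lay above the IR_HSO median, so the 2 ranges overlapped but the bulk of the cells did not.

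Summed over cells, Cela2a stood at 13667 CPM in IR and 32239 CPM in IR_HSO, a ratio of 2.36 (95% counting interval 2.29 to 2.43). Without the cell that held most of it in each library, the ratio was 2.11. The other elastases did not share the difference at this size. Cela1 had a ratio of 1.12 (1.08 to 1.15) and Cela3b a ratio of 1.08 (1.06 to 1.10), and the 4 Cela genes together held 6.48% and 8.81% of acinar-like UMIs. With equal weight per cell both turned, to log2 differences of -0.28 for Cela1 and -0.11 for Cela3b, and Cela1 stood at -0.13 without the deepest cell of each library.

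The remaining proteases of high level stayed within 2-fold. 2210010C04Rik, a trypsinogen-like gene, stood at 35528 and 39043 CPM, Ctrl, a chymotrypsin-like protease, at 11299 and 11669 CPM, and Cpb1, carboxypeptidase B, at 13613 and 14790 CPM. Spink1, the trypsin inhibitor that guards acinar cells against early activation, stood at 2291 and 2663 CPM, a ratio of 1.16 (1.07 to 1.27). Prss3, a trypsinogen copy, was at 250 CPM in IR and 83.9 CPM in IR_HSO, 2.98-fold lower in IR_HSO (2.09 to 4.27). 1810009J06Rik was 3.10-fold lower (530 and 171 CPM), but 1 cell of IR held 60.4% of its UMIs and 1 cell of IR_HSO 44.4%, and with equal weight per cell its log2 difference was -0.44. Gm2663, outside the list, was 3.14-fold lower (2.67 to 3.70), with 26 of 51 and 21 of 63 cells holding a UMI. Prss3 and Gm2663 were at least 2-fold lower in the other cells of IR_HSO as well.

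**Figure D3:**
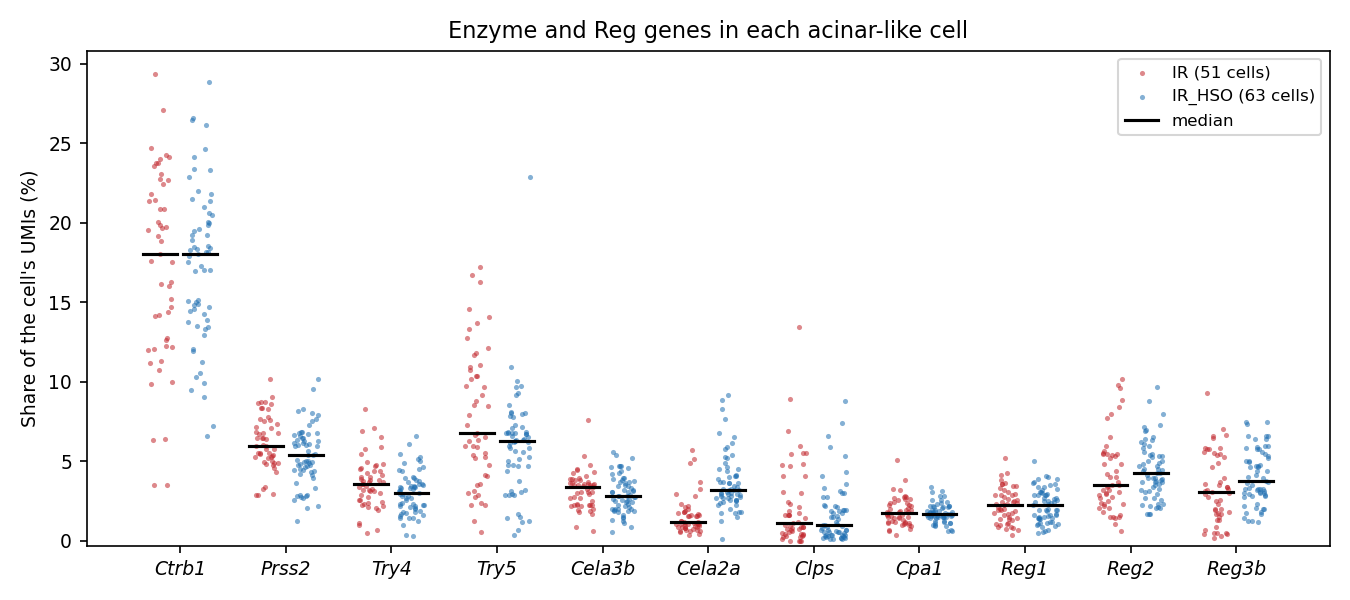
Share of each acinar-like cell's UMIs (vertical axis, %) in the 10 rule genes and Cela2a, with a point per cell (51 in IR, 63 in IR_HSO) and the median as a black line. Medians of Ctrb1 are 18.0% and 18.1%, while those of Cela2a are 1.16% and 3.22%.

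Of 13 genes of lipases, amylases and ribonuclease, 9 were tested, 1 was 2-fold higher (Amy2b) and 0 were 2-fold lower, with a median log2 difference of 0.15. Amy2b, a pancreatic alpha-amylase, stood at 309 CPM in IR and 948 CPM in IR_HSO, a ratio of 3.07 (2.5 to 3.80). It had a UMI in 29 of 51 and 43 of 63 cells, and with equal weight per cell its log2 difference was 0.95, just under 2-fold. Amy2a5 stood at 224 and 231 CPM and Amy1 at 196 and 207 CPM, so these 2 were nearly equal. The 7 amylase genes together held only 0.0751% and 0.145% of acinar-like UMIs, and the Amy2a genes are near-identical copies whose reads may not be counted.

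Pnliprp1, a lipase-related protein, stood at 6975 and 12176 CPM (ratio 1.75, 1.67 to 1.83), under the 2-fold limit. Its difference passed 2-fold when cells with a lymphocyte gene UMI were left out (log2 1.01) and when centred on the median gene (log2 1.02). Pnliprp2 had a ratio of 1.41 (1.28 to 1.54) and Cel, the bile salt-dependent lipase, a ratio of 1.20 (1.10 to 1.32). Pnlip, the main triglyceride lipase, stood at 14240 and 13328 CPM, and Clps, the colipase it needs to act on fat droplets, at 19752 and 21535 CPM. Rnase1, the pancreatic ribonuclease, stood at 14841 and 14690 CPM.

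Zymogen granule genes were level, with 6 of 12 tested, 0 higher and 0 lower and a median log2 difference of -0.03. Zg16, a lectin that helps sort zymogens into granules, stood at 20824 and 19310 CPM, Sycn, a granule membrane protein, at 13653 and 11872 CPM, and Dmbt1 at 5798 and 6698 CPM. Of 12 other acinar-enriched genes 8 were tested, with 0 higher and 0 lower and a median of 0.25. Pdia2, the pancreatic protein disulphide isomerase, was the most abundant of them, at 323 and 486 CPM (ratio 1.5, 1.21 to 1.88). Gnmt, a methyltransferase of acinar cells and liver, had the highest ratio of them, 1.91 (1.04 to 3.76), at 39.7 and 76.0 CPM. The machinery that feeds the granules was also within 2-fold, with 0 of 15 tested genes of 32 translocon and secretory pathway genes (median 0.00) and 0 of 10 tested of 25 unfolded protein response genes (median 0.14) past the limit. Hspa5, the main chaperone of the endoplasmic reticulum, stood at 210 and 233 CPM in acinar-like cells. The other cells had 557 and 428 CPM, but they lack the large share of acinar genes that lowers all other CPM. The log2 difference of Hspa5 between the libraries, 0.15, was 0.95 with equal weight per cell and -0.02 without the deepest cell of each library. It was -0.35 without cells holding a lymphocyte gene UMI.

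The 6 Reg genes together held 13.4% of acinar-like UMIs in IR and 13.7% in IR_HSO. The 3 Reg genes of the rule took 9.15% of the median cell in IR (1.96% to 24.7%) and 10.2% in IR_HSO (3.99% to 18.5%), so single cells differed widely in both libraries. Of 18 other Reg and acinar injury genes 9 were tested, 0 were 2-fold higher and 2 were 2-fold lower (Clu and Lcn2). Reg3a stood at 3147 and 3329 CPM and Reg3g, an antibacterial lectin, at 1335 and 1783 CPM, a ratio of 1.34 (1.20 to 1.49). Nupr1, a stress-induced chromatin protein, stood at 1571 and 1074 CPM, a ratio of 0.684 (0.610 to 0.767), but with equal weight per cell its log2 difference was 0.05.

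Clu, the chaperone clusterin, was at 1293 CPM in IR and 597 CPM in IR_HSO, 2.17-fold lower (1.89 to 2.49), and 1.88-fold lower without the cell that held most of it in each library. Centred on the median gene its log2 difference was -0.90, also under the limit. Lcn2, an iron-binding acute phase protein, was at 661 and 128 CPM, 5.15-fold lower (3.99 to 6.72). It was found in 13 of 51 and 19 of 63 cells, and 1 cell of IR held 45.9% of its UMIs. Without the top cell of each library it was 4.02-fold lower, and with equal weight per cell its log2 difference was -0.71. Lrg1, another acute phase glycoprotein, was at 814 and 258 CPM, 3.16-fold lower (2.59 to 3.85), and its log2 difference was -0.88 with equal weight per cell. These 3 genes were thus higher in IR in the summed RNA and rested in part on a few cells.

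Few stress and damage genes had enough UMIs in acinar-like cells to be compared. Of 24 p53 targets, 3 were tested, with a median log2 difference of -0.23, against -0.22 over all 456 genes. Of the 3, 1 was 2-fold higher and the other 2 lay within 2-fold on the lower side. The higher gene was the cell cycle inhibitor Cdkn1a, with 14 UMIs (39.7 CPM) in IR and 53 (83.9 CPM) in IR_HSO. Its ratio was 2.11 (1.16 to 4.12). Leaving out the deepest cell of each library put it at a log2 difference of 0.97, under the limit. The whole list stood at 734 and 677 CPM, and at 2657 and 2428 CPM in the other cells. In acinar-like cells the 67 acinar genes took 78.2% and 80.6% of UMIs, which lowers all other CPM. The list's levels are thus not directly comparable between the 2 kinds of cells. Of 20 antioxidant and metallothionein genes 6 were tested and 0 passed the limit, with a median log2 difference of -0.34. The zinc-binding Mt1 went the other way and lay nearest the limit, at 802 and 1519 CPM (ratio 1.89, 1.66 to 2.17). Centred on the median gene Mt1 passed the limit (log2 1.14), and without cells holding a lymphocyte gene UMI its log2 difference was 0.43. In the other cells Mt1 lay the opposite way, at 204 and 113 CPM. Of 21 interferon response genes 2 were tested, with a median log2 difference of -0.66. Of these 1, Ifitm3, was 2.08-fold lower (1.58 to 2.74), under the limit when centred on the median gene (log2 -0.83). Of 21 immediate-early and heat shock genes 3 were tested, with a median log2 difference of -0.98. Jun was higher (28.4 and 68.0 CPM) and Hspa8 2-fold lower. Jun rested on few cells, with a log2 difference of 0.04 at equal weight per cell.

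Other genes more than 2-fold higher in IR_HSO were in part higher in the rest of that library too. Of the 16, 8 were at least 2-fold higher in the other cells of IR_HSO as well. Of the 36 lower genes, 4 were at least 2-fold lower there. The same share over all 456 tested genes is not given here, so neither count sets the called genes apart. Among the 8 were Rn18s-rs5, Mir6236 and Gstp1. Rn18s-rs5 stood at 7874 and 22616 CPM in acinar-like cells and at 12329 and 50315 CPM in the other cells. Ggt1, the membrane enzyme that degrades glutathione, was not among these, with 5 UMIs in IR and 45 in IR_HSO (ratio 5.02, 2.0 to 16.2) in 5 of 51 and 23 of 63 cells, and a ratio of 0.959 in the other cells. Hamp2, a hepcidin gene, stood at 42.5 and 96.5 CPM, a ratio of 2.27 (1.27 to 4.30), and at a log2 difference of 0.10 without cells holding a lymphocyte gene UMI. The cause of the library-wide differences was not tested.

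Of the 36 genes 2-fold lower in IR_HSO, 27 had a level in the other cells at least as high as in the acinar-like cells. These included Tmsb4x, Actb, B2m, Gapdh, Ccl5, Nkg7 and Malat1. The remaining 9 of the 36 were higher in the acinar-like cells, as were 122 of all 456 tested genes. The 2 shares were similar, so this count does not set the 36 apart. T cell genes as a list stood at 261 CPM in IR acinar-like cells and 83.9 CPM in those of IR_HSO, against 4038 and 3222 CPM in the other cells, and all 9 had a UMI in both sets. NK cell genes stood at 471 and 209 CPM, against 4171 and 3059 CPM. These are 6.46% and 2.60% of the level in the other cells for T cell genes, and 11.3% and 6.83% for NK cell genes. A UMI of 7 lymphocyte genes (Cd3d, Cd3e, Cd3g, Cd79a, Cd79b, Ncr1, Klrb1c) was found in 24 of 51 and 19 of 63 cells, and 3 or more UMIs in 5 and 2 cells. Without those 5 and 2 cells T cell genes stood at 171 and 77.4 CPM and NK cell genes at 250.2 and 206 CPM.

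Without those 5 and 2 cells Malat1, a nuclear noncoding RNA, was level, at 519 CPM in IR and 556 CPM in IR_HSO, where all cells had given 1755 and 707 CPM. Ccl5, a chemokine of cytotoxic lymphocytes, went from 442 and 179 CPM to 190 and 174 CPM. Without those cells, and with no minimum of UMIs, 26 of the 36 lower genes were still 2-fold lower, Lcn2, Lrg1, Clu, Prss3 and Gm2663 among them, and 15 of the 16 higher genes were still 2-fold higher. With the minimum of 50 UMIs, 410 genes were left, of which 18 were higher and 22 lower, and 12 and 17 of these were among the genes called with all cells. The part of lymphocyte RNA in the other differences was not tested.

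**Figure D4:**
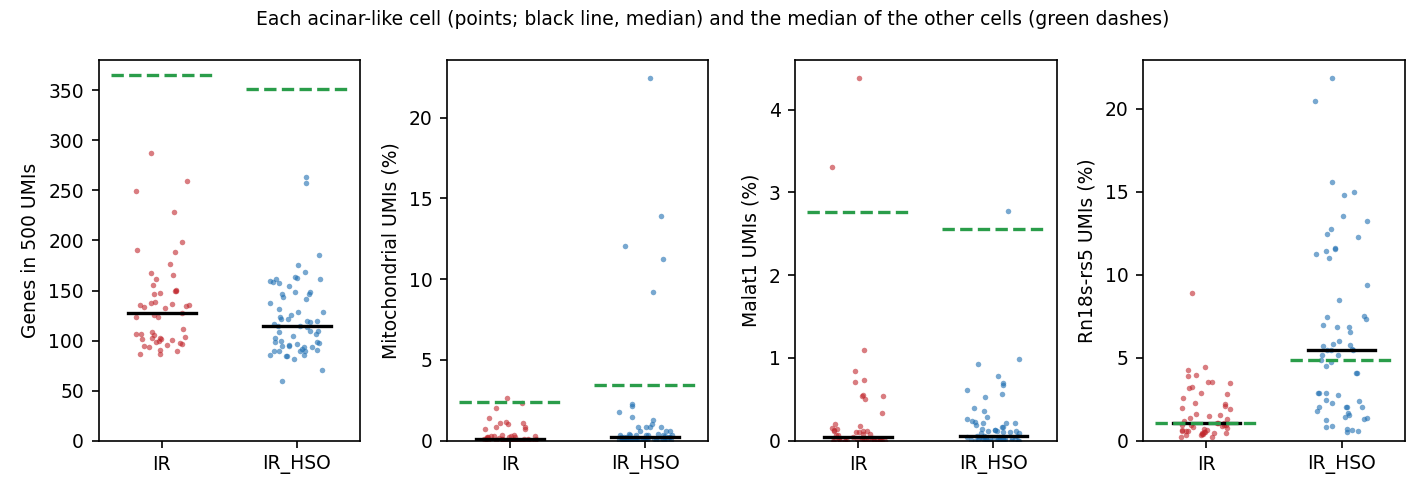
Genes found in 500 UMIs and the shares of mitochondrial, Malat1 and Rn18s-rs5 UMIs (%) in each acinar-like cell (points) with the median as a black line and the median of the other cells of the library as green dashes. Medians of genes are 128 and 115 in acinar-like cells against 365 and 351 in the other cells.

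Acinar-like cells were poor in gene variety, mitochondrial RNA and nuclear RNA. Thinned to 500 UMIs, the median cell showed 128 genes in IR and 115 in IR_HSO, against 365 and 351 in the other cells. Unthinned medians were 391 and 417 genes. Mitochondrial UMIs took 0.122% of the median acinar-like cell in IR (0% to 2.67%) and 0.216% in IR_HSO (0% to 22.4%), against 2.42% and 3.46% in the other cells, and 4 cells of IR_HSO and 0 of IR had over 10%. Malat1 took 0.0427% and 0.0597% of the median cell, against 2.77% and 2.56%. Of the cells with over 0.5% Malat1, 10 in IR and 9 in IR_HSO, 4 and 2 held 3 or more lymphocyte gene UMIs. Ribosomal protein genes took 6.77% and 6.22%, against 20.6% and 18.8%. Shares of a cell sum to a whole, so the large share of enzyme genes lowers all others, and the part of cell integrity in these values was not tested.

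Depth went with composition. In cells under 1000 UMIs (12 in IR, 20 in IR_HSO) the rule genes took 51.3% and 40.8% of the median cell and Rn18s-rs5 2.54% and 7.20%, while in cells with 5000 UMIs or more (19 and 25) they took 58.6% and 58.2%, and Rn18s-rs5 0.564% and 2.26%. Reg genes of the rule also took less of the shallow cells, 6.66% and 8.32% against 13.0% and 12.6% in the deep ones. Cela2a was higher in IR_HSO in each depth group, with medians of 1.33% and 4.06%, 1.16% and 3.54%, and 1.16% and 2.96% from shallow to deep.

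Acinar-like cells also differed among themselves in the balance of enzymes. In cells with at least 2000 UMIs (32 in IR, 35 in IR_HSO), the share of Try5 ran against those of Pnlip (Spearman's rho across cells -0.68 in IR and -0.61 in IR_HSO), Cela1 (-0.77 and -0.58) and Clps (-0.72 and -0.57). Pnlip ran with Cela1 (0.90 and 0.68) and Clps with Rnase1 (0.66 and 0.65). Reg2 ran with Reg3b (0.75 and 0.67). Try5 ranged from 0.538% to 16.7% of a cell's UMIs in IR and Pnlip from 0.0380% to 8.07%. The pairs were chosen after their values were seen from 136 pairs of 17 genes. Shares of 1 cell sum to a whole, which pushes rho down. Per Ctrb1 UMI, which shares a denominator and pushes it up, Try5 kept a negative rho with Pnlip (-0.44 and -0.29), Cela1 (-0.50 and -0.42) and Clps (-0.25 and -0.20).

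The same 10 genes were found at low level in nearly all other cells of the 2 libraries. Outside the acinar-like cells they stood at 1048 CPM in IR and 660.0 CPM in IR_HSO, against 0.782 CPM in control. A T cell-like cell (at least 2 UMIs of Cd3 genes and 0 of Cd79a and Cd79b) should lack them. Of 7891 such cells in IR 95.4% had a UMI of the 10 genes, at 964 CPM and a median depth of 3479 UMIs, and of 6879 in IR_HSO 78.9%, at 579 CPM and a median depth of 3453. NK cell-like cells stood at 1165 and 638 CPM and B cell-like cells at 335 and 239 CPM. A single UMI of these genes therefore did not mark an acinar-like cell. Acinar-like cells held 79.6% of all UMIs of the 10 genes in IR and 92.5% in IR_HSO, and the other cells the rest.

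For some genes the mix in the other cells lay near that of the acinar-like cells of the same library. Of the UMIs of the 10 genes, Ctrb1 took 33.1% in acinar-like and 32.4% in T cell-like cells of IR, and 35.0% and 32.4% in IR_HSO. Try5 took 15.5% and 15.5% in IR and 11.8% and 11.4% in IR_HSO. Cela2a, which the rule did not use, stood at 7.05 UMIs per 100 of Ctrb1 in acinar-like and 8.14 in T cell-like cells of IR, and at 16 and 21.6 in IR_HSO. The IR_HSO to IR ratio of Cela2a per Ctrb1 UMI was thus 2.26 (2.19 to 2.34) in acinar-like, 2.66 (2.43 to 2.91) in T cell-like and 2.41 (1.95 to 2.98) in NK cell-like cells. For Try5 it was 0.723, 0.737 and 0.683, and for Pnliprp1 1.68, 1.58 and 1.65. B cell-like cells held few of these UMIs, 21 and 19 of Cela2a and 16 and 10 of Pnliprp1, with ratios per Ctrb1 UMI of 1.74 (0.883 to 3.39) and 1.20 (0.486 to 2.81), both with intervals that hold 1 and, for Try5, of 0.606 (0.428 to 0.843). The lymphocyte-like cells come from the same 2 libraries and are not separate samples. How acinar RNA came to be counted in them was not tested.

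**Figure D5:**
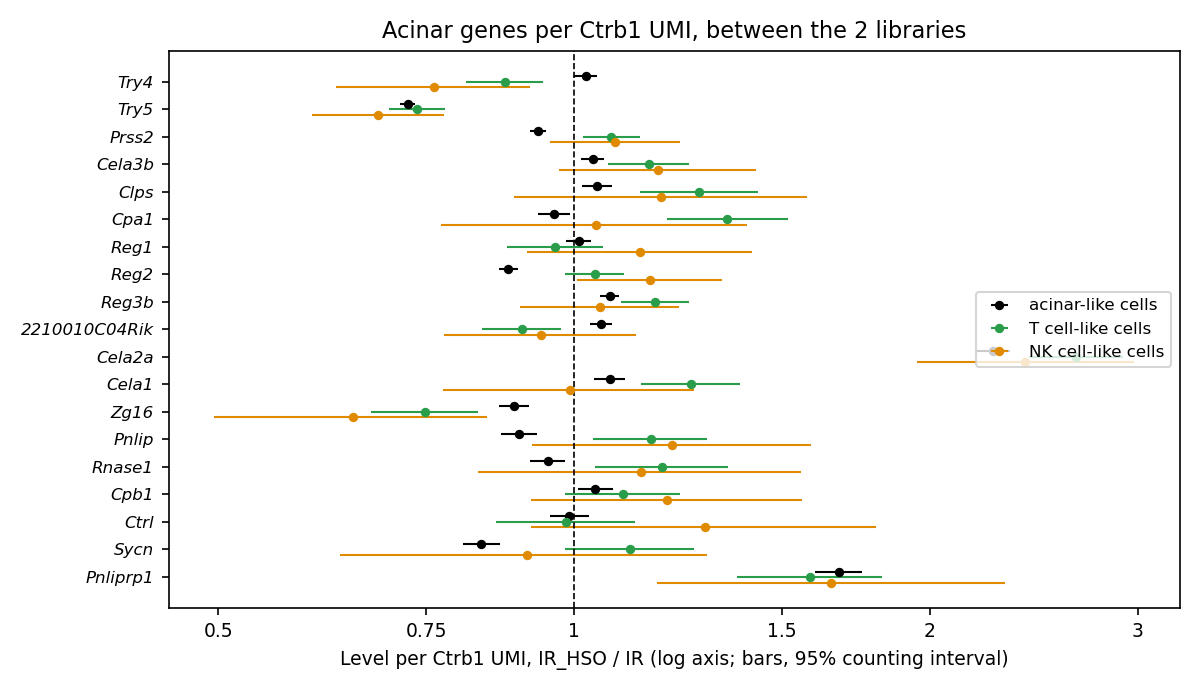
IR_HSO to IR ratio of 19 acinar genes per Ctrb1 UMI (horizontal log axis) in acinar-like, T cell-like and NK cell-like cells, with 95% counting intervals. Cela2a lies at 2.26 to 2.66 and Pnliprp1 at 1.58 to 1.68 in all 3, and Try5 at 0.683 to 0.737.

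Agreement was not complete. For most of the genes plotted, Cela2a among them, the intervals in acinar-like and T cell-like cells did not overlap. Zg16 per Ctrb1 UMI had a ratio of 0.890 in acinar-like and 0.748 in T cell-like cells, and Cpa1 0.961 and 1.35. Sycn had 0.834 and 1.12, Pnlip 0.898 and 1.16, and Try4 1.02 and 0.874. Only Try5, Reg1, Cpb1, Ctrl and Pnliprp1 had intervals that overlapped. The ratios of most genes thus differed between the 2 kinds of cells by more than counting error. All of them share Ctrb1 as denominator, so a shift in Ctrb1 moves every ratio together. The intervals also take no account of differences between cells, so the genes are not separate disagreements.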

How the data were processed

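Spleen suspensions were measured in 3 single-cell libraries, 1 per group. The deposited values are raw UMI counts per gene and cell as the authors deposited them, and their headers name Cell Ranger at version 7.0.1. The build was GRCm39 per the submitters' processing notes. Annotation and strand setting are not given in the sources used here. No deposited cell had under 500 UMIs, and no doublet caller was run. Counts were used as deposited, with the 56980 features summed by symbol. Close copies (trypsinogens, amylases) may share reads.

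Counts of acinar-like cells were summed per library and scaled to CPM. Ratios carry exact conditional 95% intervals and shares exact (Clopper-Pearson) ones. Genes with at least 50 UMIs were compared, 1 CPM was added before log2, and 2-fold was the limit. With 1 library per group no test was run. Named genes were the rule genes, up to 4 of the most abundant of each of 29 lists, the 15 most abundant others, the 10 highest and 10 lowest ratios and the 10 most particular to these cells. Genes named for other reasons were chosen after their values were seen. The members and lists were chosen with earlier results of these data known. Calls and intervals were tested on simulated counts (Python 3.11.15, numpy 2.4.6, scipy 1.17.1, pandas 2.3.3). These counts were drawn with counting error only and no differences between cells. They therefore cannot show how the calls hold up against differences between cells. Alternatives are given in the closing section.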

Additional observations from a re-analysis of the deposited data

How the results depend on the processing

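The share of acinar-like cells stayed inside its counting interval under each of the 6 alternatives run for it. The numbers of genes 2-fold higher and lower in IR_HSO, 16 and 36 of 456 as reported, became 29 and 75 with equal weight per cell, 41 and 158 with at least 20 UMIs per gene (1145 tested), 9 and 11 with at least 200 (170 tested), and, of the same 456 genes, 38 and 109 at a fold of 1.5 and 26 and 21 when centred on the median gene. The lower genes numbered 23 of 418 tested with cells of at least 40%, 17 of 228 without cells holding a lymphocyte gene UMI and 22 of 410 without cells holding 3 or more, so part of the smaller counts is fewer genes tested. Malat1 turned to a log2 difference of 0.81 and 0.10 under these last 2, and Chd9 to -0.56 with equal weight per cell. The rule genes' share of acinar-like UMIs was 60.3% and 58.7% (IR and IR_HSO) with cells of at least 40%, 52.0% and 48.9% with equal weight, 56.5% and 58.3% without the deepest cell, 62.2% and 58.3% without cells with a lymphocyte gene UMI, and 59.0% and 58.1% without cells with 3 or more. Their level in the other cells was 1009 and 570.0 CPM under 10% mitochondrial UMIs. Leaving out cells with 3 or more lymphocyte gene UMIs, leaving out the cell with most UMIs of a gene and centring were chosen after seeing the data. The causes were not tested. Cela2a kept its direction and 2-fold size under each of the 11 alternatives that could move its value, with log2 differences of 1.01 to 1.46. Gstp1 had a log2 difference of 0.92, under the limit, without cells holding a lymphocyte gene UMI. No paired analysis was possible because each group had 1 library. The 51 and 63 cells limit genes under 50 UMIs, for which no comparison is given.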

Other observations

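Lists on lipid use held few UMIs in acinar-like cells. There the 67 acinar genes took 78.2% of UMIs in IR and 80.6% in IR_HSO, which lowers the CPM of all other genes. The CPM below are thus not directly comparable with those of the other cells. The 16 genes of fatty acid oxidation and PPAR targets held 54 UMIs in IR (153 CPM) and 62 in IR_HSO (98.1 CPM), against 639 and 613 CPM in the other cells, and 0 were abundant enough to compare. The 12 genes of fatty acid and sterol synthesis held 16 and 34 UMIs (45.4 and 53.8 CPM), against 282 and 287 CPM in the other cells. Plasma cell genes, whose most abundant member is the antibody joining chain Jchain, stood at 65.2 and 63.3 CPM, against 4229 and 3210 CPM in the other cells.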
